A study of Rattus norvegicus with 6 samples.

Results

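The genes described here are cathepsins B, C, D, H, K, L, S and Z (Ctsb, Ctsc, Ctsd, Ctsh, Ctsk, Ctsl, Ctss and Ctsz), legumain (Lgmn) and cystatin C (Cst3), in cultures of olfactory ensheathing cells (OECs) of the rat, glia that wrap the axons of the olfactory nerve. They are 10 of the 12135 genes measured above a floor of signal on either array type. Every probe set whose only annotated gene symbol was one of these 10 genes was taken, which gave 12 of the 8799 probe sets of the Affymetrix U34A array and 13 of the 31099 of the RAE2.0 array. Of the 10 genes 8 were on both array types, while Ctsz and Lgmn were on RAE2.0 only. All 25 probe sets passed the filter on low signals.

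Total RNA of 3 populations was hybridised to 1 array of each type, 6 arrays in all. TEG3 is a clonal line, so that it stands for a single clone. It was made from OECs of Wistar rats 60 days old by transfection with SV40 large T antigen. For OEC Lp, cells of the olfactory nerve layer of Wistar rats 21 days old were grown as primary cultures past 50 population doublings. OEC Ep was a primary culture of the same tissue, strain and age, kept for a week and through less than 3 doublings. All populations grew in the same medium, DMEM with 3% serum, 20 µg/ml bovine pituitary extract and 2 µM forskolin, and the labels give an OEC purity over 90% for OEC Lp and OEC Ep. The RNA was pooled from 3 cultures, and the labels do not say whether the array types carried the same pool, so that p-values may measure technical spread alone.

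Cathepsins are proteases of endosomes and lysosomes. They are made as inactive proenzymes, cleave proteins at acid pH and can be secreted, where some of them digest the extracellular matrix. Most are cysteine proteases, which cystatin C, a small secreted protein, blocks outside the cell. Cathepsin D is an aspartic protease that cystatins do not block, and legumain, a cysteine protease of another family, cuts after asparagine and helps to process several cathepsins. In nervous tissue cathepsin S is known as an enzyme of microglia and macrophages, whereas cathepsins B, D and L are made by nearly every cell.

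Signals below are MAS5 signals scaled to the same trimmed mean within an array type. Signals lower than 129 on U34A and 168 on RAE2.0, the 40th percentiles, are read as being at a floor. Where 1 population is at the floor, the fold on a single probe set is a lower bound. A fitted log2 fold averages over the array types with such signals set to the floor, so that it can understate a fall. For genes on both types, limma was fitted over all 3129 genes with a term for array type, and a gene was called at an adjusted p under 0.05. RNA quality, read as the GAPDH 3'/5' signal ratio, was 1.54 in TEG3, 1.52 in OEC Lp and 1.96 in OEC Ep on U34A, and 1.02, 0.981 and 1.02 in the same order on RAE2.0. Of 12 OEC and Schwann cell markers on RAE2.0, 2 were above the floor in TEG3, 3 in OEC Lp and all 12 in OEC Ep. On U34A the counts differed less, with 8 of 10 above the floor in TEG3, 7 in OEC Lp and all 10 in OEC Ep. The defining markers Sox10 and S100b fell in TEG3 (fitted log2 folds -4.24 and -6.72, limma adjusted p = 0.00546 and 0.00988) and in OEC Lp (-4.79 and -6.74, limma adjusted p = 0.00432 and 0.00801). Of 6 neuron markers tested, Nefl and Nefm fell in TEG3, and these and Uchl1 in OEC Lp. Nefm on both types and S100b on RAE2.0 were above the floor in OEC Ep alone and passed the filter only through it. So did the stronger S100b probe set and the weaker Nefl probe set on U34A. All of these had to be lower in TEG3 and OEC Lp, and their part in these calls is a description. For comparison, falls were called for 3.84% of the 3129 genes in TEG3 and for 4.03% in OEC Lp.

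Over the 3 populations, the genes did not share a single pattern. Ctss and Ctsc fell in TEG3 and in OEC Lp relative to OEC Ep. The signal of Ctsz, without a test, was 13.4-fold lower in TEG3 and 14.6-fold lower in OEC Lp than in OEC Ep. Ctsb, Ctsl, Ctsd and Cst3 had strong signals in all 3 populations, with the lowest in TEG3 on every probe set of these genes. The plot of signals by population shows both kinds of pattern.

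**Figure D1:**
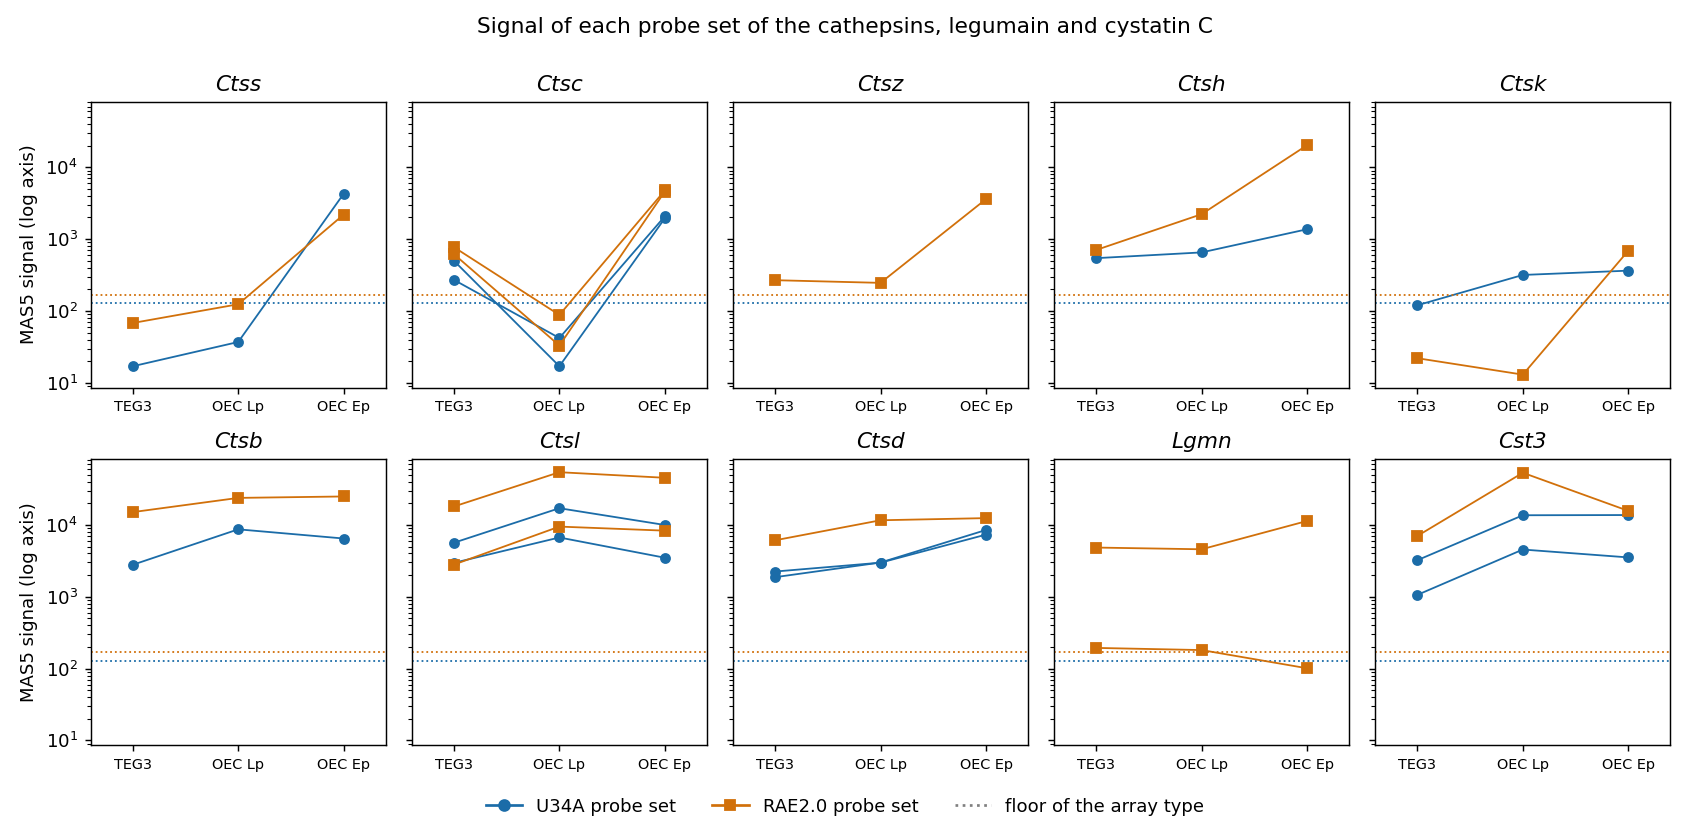
Scaled MAS5 signal (log axis) of every probe set of the 10 genes in TEG3, OEC Lp and OEC Ep, with 1 line per probe set, blue circles for U34A, orange squares for RAE2.0 and dotted lines at the floors of 129 and 168. Ctss is under the floor in TEG3 and OEC Lp and reaches 4282 and 2196 in OEC Ep, while Ctsb, Ctsl, Ctsd and Cst3 stay above 1000 in every population.

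Ctss codes for cathepsin S, an endopeptidase that stays active at neutral pH and trims the invariant chain of MHC class II in antigen-presenting cells. On U34A its signal was 17 in TEG3, 37 in OEC Lp and 4282 in OEC Ep. On RAE2.0 it was 68 in TEG3, 124 in OEC Lp and 2196 in OEC Ep. Both long-term populations were at the floor on both types, and OEC Ep was the only population through which the gene passed the filter, so that it had to differ. Against the floor, both were at least 33.2-fold lower than OEC Ep on U34A and at least 13.1-fold lower on RAE2.0. Ctss fell in TEG3 (fitted log2 fold -4.38 ± 0.437 SE, limma adjusted p = 0.00988) and in OEC Lp (the same fitted value, limma adjusted p = 0.00849). The values are equal because both are measured against the same floor, and the order of TEG3 and OEC Lp is not known.

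Ctsc codes for cathepsin C, a dipeptidyl peptidase that activates the granule proteases of leukocytes. On U34A its probe sets gave 271 and 500 in TEG3, 42 and 17 in OEC Lp, and 2079 and 1950 in OEC Ep. On RAE2.0 they gave 618 and 773 in TEG3, 33 and 88 in OEC Lp, and 4594 and 4760 in OEC Ep. All 4 probe sets put OEC Ep highest and TEG3 next, with OEC Lp at the floor. Ctsc fell 6.08-fold in TEG3 (log2 fold -2.60 ± 0.34, limma adjusted p = 0.0194). It also fell in OEC Lp (fitted log2 fold -4.38 ± 0.34, limma adjusted p = 0.0052), where the probe sets were at least 16.1-fold and 15.1-fold lower on U34A and at least 27.3-fold and 28.3-fold lower on RAE2.0. Between the long-term populations it had a log2 fold of 1.78 ± 0.34 in TEG3 against OEC Lp, which missed the threshold (limma adjusted p = 0.0788).

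The promoters of these genes are shown because both genes fell in both populations. The windows are those of RefSeq on GRCr8, from 250 bases before to 50 after the start of the gene, and capitals mark the letters CCAAT or CACGTG on either strand.
Ctss, chr2:185775146-185775445, plus strand: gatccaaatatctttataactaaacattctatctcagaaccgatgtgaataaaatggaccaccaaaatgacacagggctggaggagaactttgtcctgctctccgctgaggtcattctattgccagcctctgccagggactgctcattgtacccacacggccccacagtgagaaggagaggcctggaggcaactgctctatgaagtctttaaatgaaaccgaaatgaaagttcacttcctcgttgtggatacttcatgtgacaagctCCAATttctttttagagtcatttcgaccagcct
Ctsc, chr1:151440799-151441098, plus strand: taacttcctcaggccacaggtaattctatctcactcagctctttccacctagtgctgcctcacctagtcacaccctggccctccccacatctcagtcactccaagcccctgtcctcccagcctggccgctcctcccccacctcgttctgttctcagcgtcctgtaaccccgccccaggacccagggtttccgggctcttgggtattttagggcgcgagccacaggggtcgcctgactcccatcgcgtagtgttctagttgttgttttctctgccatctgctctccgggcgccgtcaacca
CACGTG, the core of the site bound by TFEB, a transcription factor of lysosomal genes, is in neither window. CCAAT stands once in the Ctss window, 17 bases after the start, and not in that of Ctsc. Of all 33469 promoters of this length, 6.42% hold CACGTG and 37.5% hold CCAAT.

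The other exopeptidases were Ctsz and Ctsh. Ctsz codes for cathepsin Z, a carboxypeptidase abundant in macrophages. Its signal on RAE2.0 was 268 in TEG3, 246 in OEC Lp and 3602 in OEC Ep on 1 array each, and both long-term populations were little above the floor. Ctsh codes for cathepsin H, an aminopeptidase. Its signal was 543 in TEG3, 653 in OEC Lp and 1372 in OEC Ep on U34A, and 706 in TEG3, 2224 in OEC Lp and 20301 in OEC Ep on RAE2.0. The order was the same on both types, but the size was not. The log2 ratio of TEG3 to OEC Ep was -1.34 on U34A and -4.85 on RAE2.0. In the fit Ctsh had a log2 fold of -3.09 ± 0.799 in TEG3 (limma adjusted p = 0.102) and -2.13 ± 0.799 in OEC Lp (limma adjusted p = 0.227), and neither passed.

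Ctsk codes for cathepsin K, the collagen-degrading protease of osteoclasts. Its signals were low: 120 in TEG3, 317 in OEC Lp and 364 in OEC Ep on U34A, and 22 in TEG3, 13 in OEC Lp and 690 in OEC Ep on RAE2.0. OEC Lp was thus close to OEC Ep on U34A and at the floor on RAE2.0. The fitted log2 fold was -1.77 ± 0.493 in TEG3 (limma adjusted p = 0.119) and -1.12 ± 0.493 in OEC Lp (limma adjusted p = 0.298), with floor values in TEG3 on both types and in OEC Lp on RAE2.0. In the RefSeq annotation of the rat, Ctsk and Ctss lie close together on chromosome 2, with the predicted gene LOC134485802 as the protein-coding gene between them.

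Markers of macrophages, cells that such cultures can hold, were lower in the same populations. Of 21 macrophage markers on RAE2.0, 5 were above the floor in TEG3, 3 in OEC Lp and 19 in OEC Ep, and their summed signal was 2496 in TEG3, 4098 in OEC Lp and 90041 in OEC Ep. Of 11 on U34A, 3 were above the floor in TEG3, 5 in OEC Lp and 8 in OEC Ep, with sums of 1217, 1093 and 23272 in the same order. Aif1, C1qb and Cd53, which mark macrophages and microglia, were at the floor in TEG3 and OEC Lp on both types. On RAE2.0, Tyrobp, Cd68 and Ptprc were at the floor there as well, though Ptprc was above it in OEC Lp on U34A. Cd14 was above the floor in every population on both types, with 1035 in TEG3, 2787 in OEC Lp and 8664 in OEC Ep on RAE2.0.

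Of 8 macrophage markers tested, 4 fell in TEG3 and the same number in OEC Lp, namely Lyz2, C1qb, Aif1 and Cd53. Of these, C1qb, Aif1 and Cd53 were above the floor in OEC Ep alone and entered the test only through it, so that they had to differ and the count is a description. Lyz2, the lysozyme of macrophages, fell 81.7-fold in TEG3 (limma adjusted p = 0.00443). In OEC Lp it fell with a fitted log2 fold of -6.92 (limma adjusted p = 0.00427). C1qb, a subunit of complement C1q, had a fitted log2 fold of -3.67 in each, from -4.17 on U34A and -3.18 on RAE2.0. The part of these cells in the falls of Ctss and Ctsc was not tested. OEC markers moved the same way: 8 of 10 tested fell in TEG3 and 8 of 10 in OEC Lp, and those above the floor in OEC Ep alone had to differ too. Beside these counts and those of the macrophage markers, limma called 3.84% of all genes lower in TEG3 and 4.03% in OEC Lp. In such bulk RNA, fewer cells of a type and less RNA per cell cannot be told apart.

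The endopeptidases Ctsb and Ctsl are found in most cells. Ctsb, cathepsin B, also cuts dipeptides from the carboxyl end of proteins. Its signal was 2783 in TEG3, 8669 in OEC Lp and 6461 in OEC Ep on U34A, and 15050 in TEG3, 23738 in OEC Lp and 24855 in OEC Ep on RAE2.0. TEG3 was lowest on both types, and the order of the primary cultures differed between the types. The log2 fold in TEG3 was -0.97 ± 0.356 against OEC Ep and -1.15 ± 0.356 against OEC Lp (limma adjusted p = 0.2 and 0.225). In OEC Lp against OEC Ep it was 0.18 ± 0.356 (limma adjusted p = 0.828).

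Ctsl, cathepsin L, had 2 probe sets on each type. They gave 5641 and 2961 in TEG3, 17059 and 6678 in OEC Lp, and 9967 and 3489 in OEC Ep on U34A. On RAE2.0 they gave 18020 and 2801 in TEG3, 54076 and 9465 in OEC Lp, and 45232 and 8310 in OEC Ep. All 4 put OEC Lp highest and TEG3 lowest. The log2 fold in TEG3 was -1.53 ± 0.352 against OEC Lp (limma adjusted p = 0.123) and -0.99 ± 0.352 against OEC Ep (limma adjusted p = 0.189), and in OEC Lp against OEC Ep it was 0.54 ± 0.352 (limma adjusted p = 0.479). None passed.

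Ctsd codes for the aspartic protease cathepsin D. Its U34A probe sets gave 2242 and 1871 in TEG3, 2978 and 2993 in OEC Lp, and 7324 and 8489 in OEC Ep, and the RAE2.0 probe set gave 6101 in TEG3, 11593 in OEC Lp and 12419 in OEC Ep. OEC Lp thus stood nearer to TEG3 on U34A and nearer to OEC Ep on RAE2.0. The log2 fold was -1.49 ± 0.405 in TEG3 (limma adjusted p = 0.115) and -0.75 ± 0.405 in OEC Lp (limma adjusted p = 0.391), both against OEC Ep. Its promoter is shown as the only one of 9 available promoters of these genes with CACGTG, in capitals together with CCAAT.
Ctsd, chr1:206968772-206969071, minus strand: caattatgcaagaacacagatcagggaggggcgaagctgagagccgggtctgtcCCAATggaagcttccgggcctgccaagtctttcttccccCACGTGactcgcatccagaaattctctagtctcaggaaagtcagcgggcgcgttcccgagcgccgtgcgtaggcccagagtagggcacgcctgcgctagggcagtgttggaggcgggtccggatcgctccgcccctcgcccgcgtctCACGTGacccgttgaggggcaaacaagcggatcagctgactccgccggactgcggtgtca
CACGTG occurs there at 157 and at 10 bases before the start, and CCAAT at 196 bases before it. Of the 9 promoters 6 hold CCAAT, those of Ctsd, Ctsk, Ctsl, Ctss, Cst3 and Lgmn, so that the letters occur among genes of both patterns. Tfeb itself, chosen after its values were seen, was on RAE2.0 only, with a signal of 822 in TEG3, 752 in OEC Lp and 411 in OEC Ep.

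Lgmn, legumain, had 2 probe sets on RAE2.0 that differed. The stronger gave 4835 in TEG3, 4575 in OEC Lp and 11344 in OEC Ep, or 2.35-fold lower in TEG3 and 2.48-fold lower in OEC Lp than in OEC Ep. The weaker gave 194, 181 and 101 in the same order, close to the floor. Averaged over both probe sets the log2 ratio to OEC Ep was -0.51 in TEG3 and -0.60 in OEC Lp, with no test.

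Cst3 codes for cystatin C, the secreted inhibitor of the cysteine cathepsins. On U34A its probe sets gave 1061 and 3224 in TEG3, 4539 and 13614 in OEC Lp, and 3525 and 13706 in OEC Ep. On RAE2.0 its probe set gave 7016 in TEG3, 53129 in OEC Lp and 15658 in OEC Ep. TEG3 was lowest throughout, and OEC Lp stood above OEC Ep by a log2 ratio of 1.76 on RAE2.0 and 0.18 on U34A. The log2 fold in TEG3 was -2.50 ± 0.443 against OEC Lp (limma adjusted p = 0.0692) and -1.53 ± 0.443 against OEC Ep (limma adjusted p = 0.127), and in OEC Lp against OEC Ep it was 0.97 ± 0.443 (limma adjusted p = 0.313). The first of these passed when only genes above the floor on all 6 arrays were tested (limma adjusted p = 0.0347, range over the alternatives 0.0347 to 1). Fibroblast and meningeal markers had their highest summed signal in OEC Lp as well, with 67868 in TEG3, 207118 in OEC Lp and 168999 in OEC Ep over 14 genes on RAE2.0, and 51957, 102876 and 93549 over 12 genes on U34A. On RAE2.0, 9 of the 14 were above the floor in TEG3, 11 in OEC Lp and 9 in OEC Ep. On U34A, OEC Ep had the most, with 7 of the 12 above the floor in TEG3, 9 in OEC Lp and 11 in OEC Ep. The part of these markers in the Cst3 signals was not tested. These markers did not move as a group in OEC Lp against OEC Ep. Of 11 tested, Col3a1 and Prrx1 rose (fitted log2 folds 2.22 and 1.91, limma adjusted p = 0.0224 and 0.0308), while Postn and Thy1 fell (-7.01 and -2.90, limma adjusted p = 0.00427 and 0.0237). Thy1 on both types and Postn on U34A were above the floor in OEC Ep alone. They had to be lower in OEC Lp, and their part in these calls is a description. Over all genes limma called 2.11% higher and 4.03% lower in this comparison.

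The comparison of TEG3 with OEC Ep asks how the immortalised line differs from short-term cultures. All 8 genes on both types had a negative log2 fold, from -4.38 to -0.97 with a median of -1.65. Over the 3129 genes the median was 0.04, and 46.9% were negative. Ctss on both types and Ctsk on RAE2.0 passed the filter only through OEC Ep. They had to be lower there, and their part in these counts is a description. Of the 8 genes 2 fell, Ctss and Ctsc, and 0 rose (8 had an unadjusted p under 0.05, as did 21.8% of all genes), while limma called 3.84% of all genes lower and 0.671% higher. Without any 1 of the 6 arrays neither call held (limma adjusted p from 0.0972 to 0.248 for Ctss and from 0.0972 to 0.276 for Ctsc). Both were also lost with no floor (0.0663 each), with no filter on dim probe sets (0.164 and 0.159), with no replicate block (0.127 and 0.473) and with the 4 arrays of these populations alone (0.0972 each).

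The question behind OEC Lp against OEC Ep is what long culture changes. Here 5 of the 8 log2 folds were negative and 3 positive, from -4.38 to 0.97 with a median of -0.93. Over all genes the median was 0.11, and 42.9% were negative. As in TEG3, Ctss on both types and Ctsk on RAE2.0 had to be lower than in OEC Ep. Again 2 genes fell, Ctsc and Ctss, and 0 rose (3 had an unadjusted p under 0.05, as did 19.7% of all genes), while limma called 4.03% of all genes lower and 2.11% higher. Ctsc lost its call when 1 OEC Lp array was left out (limma adjusted p = 0.126 without U34A and 0.153 without RAE2.0) or 1 OEC Ep array (0.153 and 0.245), and passed without either TEG3 array (0.0397 each). Ctss did not pass without any 1 of the 6 arrays (0.0554 to 0.245), with no floor (0.0614) or with the 4 arrays of these populations alone (0.0554). Neither gene passed with no filter on dim probe sets (limma adjusted p = 0.134 for Ctsc and 0.17 for Ctss) or with no replicate block (0.145 and 0.121).

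TEG3 was also compared with OEC Lp, the other long-term population. Limma called 0 of the 8 genes, with 4 at an unadjusted p under 0.05, where 1.31% of all genes were called and 15.4% had such a p. The log2 folds ran from -2.50 for Cst3 to 1.78 for Ctsc, with a median of -0.85 against -0.01 over all genes. Of the 8 genes 6 had a negative log2 fold and Ctsc alone a positive one. The comparisons share populations, so their values are set side by side in the plot of log2 folds and were not tested against each other.

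**Figure D2:**
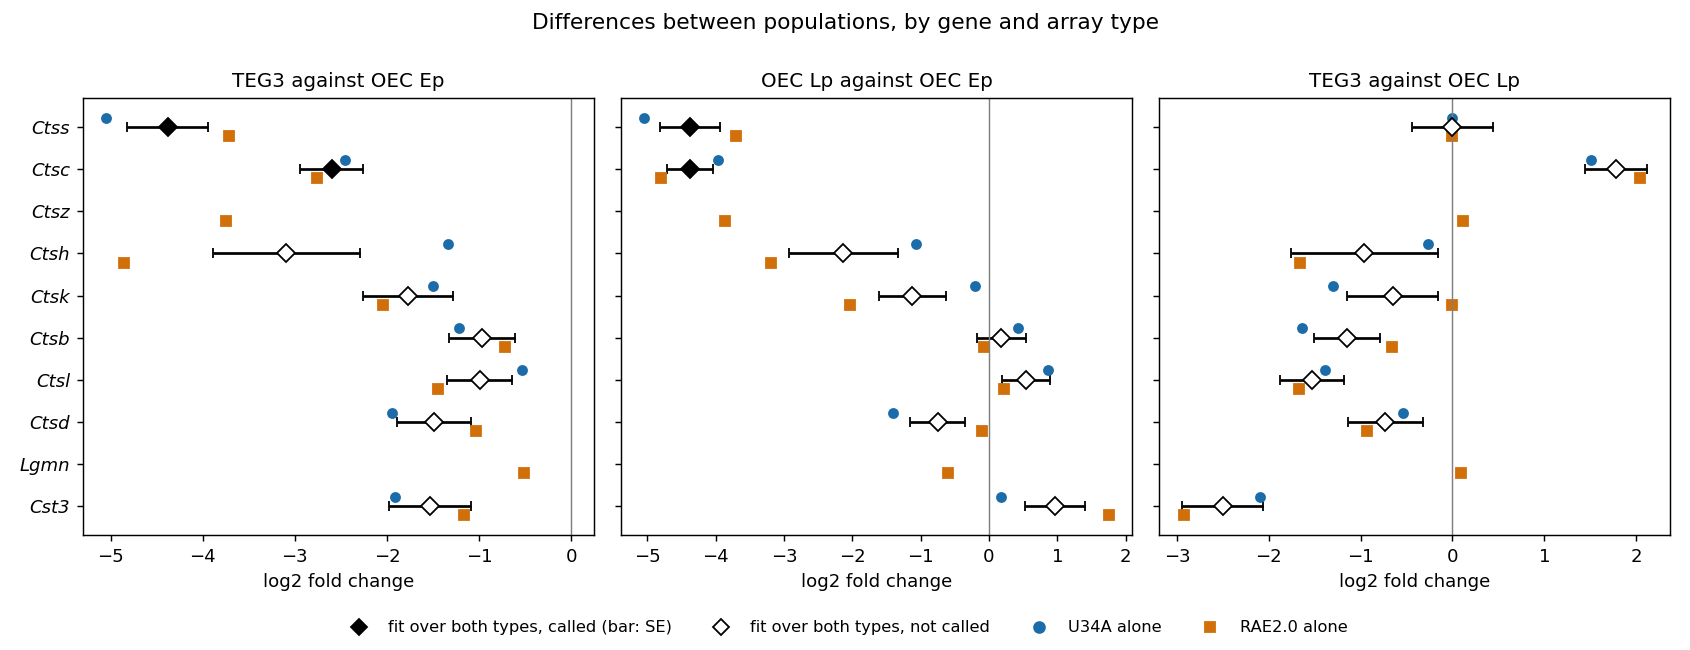
Log2 fold changes of the 10 genes for TEG3 against OEC Ep, OEC Lp against OEC Ep and TEG3 against OEC Lp (horizontal axes, with different ranges), as diamonds with SE for the fit over both array types, filled where called, and as circles for U34A and squares for RAE2.0 alone. Ctss and Ctsc are called in the first 2 comparisons and no gene in the last, and the array types lie farthest apart for Ctsh, at -1.34 and -4.85 in TEG3 against OEC Ep.

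Other lysosomal genes were looked at for comparison. Of 12 lysosomal hydrolases tested, limma called 0 in each comparison, and their median log2 fold was -0.08 in TEG3 and -0.08 in OEC Lp against OEC Ep. Those with the lowest p in TEG3 were Lipa, the acid lipase (log2 fold -1.07, limma adjusted p = 0.217), and Ppt1, a thioesterase (-0.81, limma adjusted p = 0.297). In OEC Lp, Acp5, the acid phosphatase of osteoclasts, had 2.11 (limma adjusted p = 0.089). On RAE2.0, 5 of 33 hydrolases were at least 2-fold lower in TEG3 and 4 in OEC Lp, where 10.6% and 10.4% of all genes on that type were that much lower. Of the 10 genes described here 8 and 5 were. Both counts hold Ctss and Ctsk, which passed the filter on RAE2.0 only through OEC Ep, so that they had to be lower. Among the hydrolases the same holds for Manba, which is in both of their counts.

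Lysosomal membrane, cofactor and sorting genes likewise had 0 of 10 called in each comparison, with medians of -0.52 in TEG3 and -0.34 in OEC Lp against OEC Ep. Psap, the precursor of the saposins and a partner in lysosomal sorting, had -1.23 in TEG3 and -1.38 in OEC Lp (limma adjusted p = 0.0996 and 0.0722). Lamp1, a glycoprotein of the lysosomal membrane, had -1.13 and -1.12 (limma adjusted p = 0.114 and 0.115). Igf2r, the receptor that carries newly made hydrolases to lysosomes, had 0.87 and 1.47 (limma adjusted p = 0.214 and 0.0693). The subunits of the vacuolar proton pump, which acidifies lysosomes, had 0 of 8 called in each comparison, with medians of -0.21 and -0.06. Atp6v1d had the lowest p in TEG3 (log2 fold -0.53, limma adjusted p = 0.376) and Atp6ap1 in OEC Lp (-0.39, limma adjusted p = 0.537). At an unadjusted p under 0.05 limma had 0 of these subunits in each comparison. Of the hydrolases it had 1 in each comparison, and of the membrane, cofactor and sorting genes 3 in TEG3 and 3 in OEC Lp, each against OEC Ep, and 1 between TEG3 and OEC Lp. Over all genes the share with such a p was 21.8% in TEG3 and 19.7% in OEC Lp, each against OEC Ep, and 15.4% between TEG3 and OEC Lp.

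Among other cathepsins 1 gene, Ctse, an aspartic protease, was on both types, with log2 folds of 0.11 in TEG3 and 0.14 in OEC Lp against OEC Ep (limma adjusted p = 0.874 and 0.851). OEC Ep was at the floor on both types, with only TEG3 above it on U34A (151) and only OEC Lp on RAE2.0 (203). These folds thus rest on floor values, and no lack of change can be read from them. Ctsa, Ctsf, Ctso and Tpp1 were above the floor on RAE2.0, and none of the 5 genes of this list was at least 2-fold higher or lower against OEC Ep there, where 12% of all genes were that much higher in TEG3 and 10.4% in OEC Lp. Of other inhibitors limma called 0 of 4 in each comparison, with 1 at an unadjusted p under 0.05 in TEG3 and 1 in OEC Lp, each against OEC Ep, and 2 between TEG3 and OEC Lp, beside shares of 21.8%, 19.7% and 15.4% over all genes. Cstb, the cystatin inside cells, had log2 folds of -0.84 in TEG3 and -0.01 in OEC Lp (limma adjusted p = 0.177 and 0.988). A2m, alpha-2-macroglobulin, which traps proteases of all classes, had -0.03 in TEG3 and -2.19 in OEC Lp (limma adjusted p = 0.995 and 0.131). The TEG3 value averages log2 ratios of -0.9 on U34A and 0.85 on RAE2.0, which differ in sign. OEC Lp had a signal of 11 on RAE2.0, under the floor, so that -2.19 can understate the difference.

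**Figure D3:**
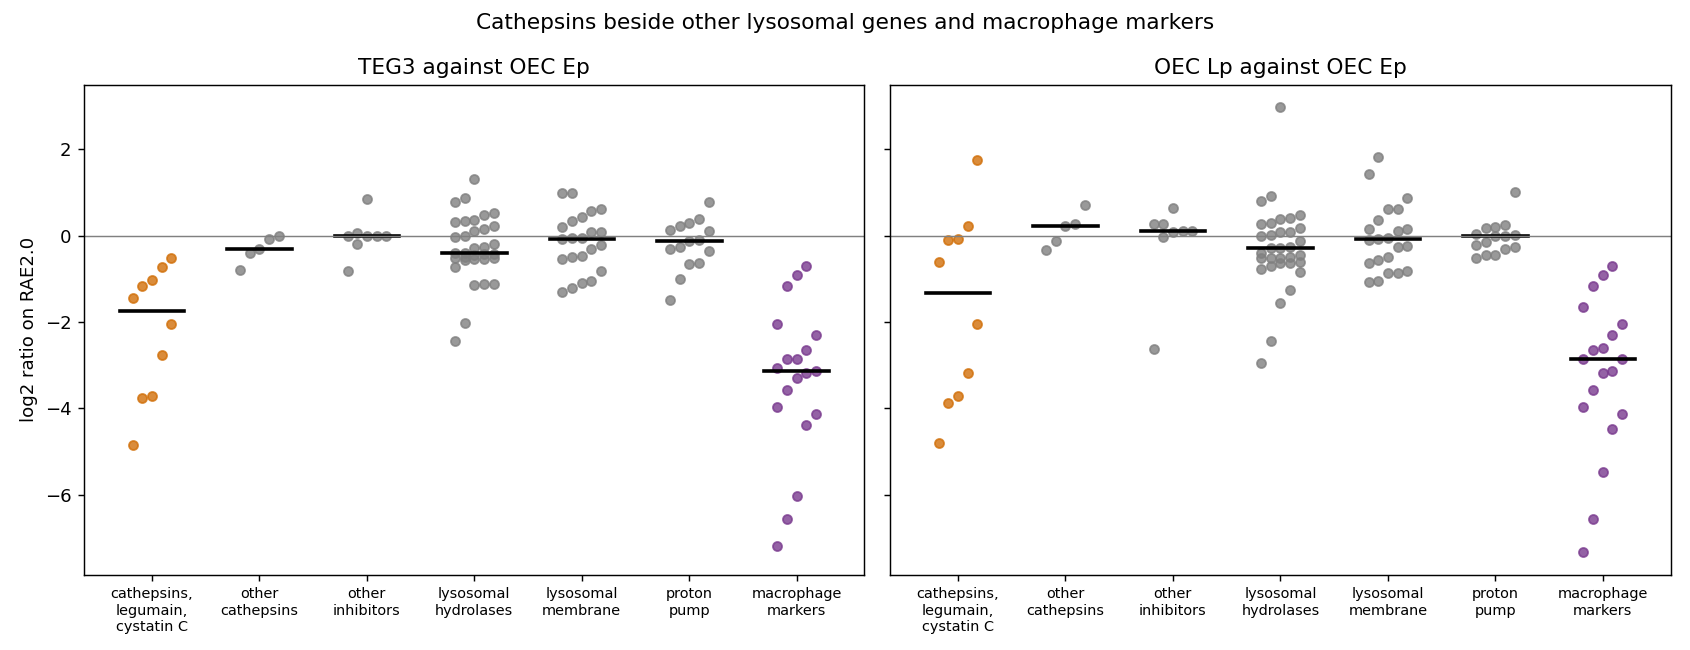
Log2 ratio on RAE2.0 of TEG3 (left) and OEC Lp (right) to OEC Ep for each gene of 7 lists, with a bar at the median of each list. The cathepsins, legumain and cystatin C have medians of -1.74 and -1.32, with Ctsh lowest at -4.85 in TEG3 and Cst3 highest at 1.76 in OEC Lp. The macrophage markers have medians of -3.14 and -2.86 and the hydrolases of -0.39 and -0.29. Most of the macrophage markers, Ctss, Ctsk and the hydrolase Manba were at the floor in TEG3 and OEC Lp and passed the filter only through OEC Ep. They had to be lower, and their part in the medians is a description.

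The genes most like each cathepsin were found by the Euclidean distance between log2 profiles over the 6 arrays, centred within each array type, among the 3128 other genes. Nearest to Ctss was C1qb (distance 0.842), followed by Calca, a calcitonin gene-related peptide (0.887), and Fez1, an axonal transport adaptor (1.11). Ctss, C1qb and Fez1 were at the floor in TEG3 and OEC Lp on both types, so that these distances compare only their heights above the floor in OEC Ep. The C1qb signals were 112 and 20 in TEG3, 22 and 14 in OEC Lp, and 3534 and 1523 in OEC Ep on U34A, and 8 in TEG3, 17 in OEC Lp and 1521 in OEC Ep on RAE2.0. Nearest to Ctsc were the cadherin Cdh2 (0.826), the intermediate filament nestin, Nes (1.14), and the survival factor Cntf (1.27). Ctsc was at the floor in OEC Lp on both types, and Cdh2 and Nes held floor values there too. Their distances thus depend in part on the floor. For Ctsh they were Nqo1, Mme and Timp3, at 0.847 to 0.944. For Cst3 they were Tle1, Nfia and Lpar1, at 0.352 to 0.564, and for Ctsl Pik3ip1, Tnfsf13 and Egln3, at 0.268 to 0.416. Ctsb had Atp5f1c, Renbp and Csf1 nearest (0.21 to 0.387), and Ctsd had Pacsin2, Furin and Oxr1 (0.491 to 0.529). Floor values in TEG3 were held by Nqo1, Mme, Timp3, Tle1, Nfia, Tnfsf13, Egln3 and Renbp, so that their distances depend in part on the floor too. Ctsk had Vsir, Rbpms and Actg2 (0.204 to 0.531), and all of these held floor values in TEG3, on which the distances depend in part. No cathepsin nor Cst3 had another of these genes among its 3 nearest. The closest such pair was Ctsb and Ctsl, at 0.887, where Ctsb ranked 44 among the neighbours of Ctsl and Ctsl 186 among those of Ctsb.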

How the data were processed

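Total RNA of TEG3, OEC Lp and OEC Ep was measured on 6 Affymetrix arrays, with 1 U34A and 1 RAE2.0 array per population, and these numbers limit the precision. The deposited values are MAS5 signal intensities on a linear scale, per the labels, and hold no detection calls. The trimmed means, with 2% left out at each end, were 1002 on U34A and 1000 on RAE2.0.

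From these values, each array was scaled to the trimmed mean of its type. The floor was the 40th percentile of the type, to which lower signals were raised. Control probe sets (59 and 57) and probe sets at the floor on all 3 arrays were dropped. Probe sets were joined to genes by the platform annotation where it gave a single symbol (7018 on U34A and 20832 on RAE2.0), and symbols were updated through Entrez identifiers. Log2 signals were averaged over the probe sets of a gene, which gave 3722 and 11542 genes, 3129 of them on both types. The model, run in limma 3.58.1 (R 4.3.3), held population and array type, with 2 residual and 3.64 prior degrees of freedom, and Benjamini-Hochberg adjustment. Array type comes from the sample titles, is also the replicate number and is the replicate block. Genes on 1 type were not tested. The procedure was tested on simulated data.

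All 10 genes are named whatever their result. Of each lysosomal list, called genes or otherwise up to 4 with the lowest p per comparison could be named, of each marker list up to 4, and of likeness the 3 nearest genes. Further macrophage markers, at the floor or above it, and the hydrolase Manba were named after their values were seen. The genes, lists and comparisons were chosen with earlier results of these data known. The alternatives were another floor or none, genes above the floor on all arrays, no filter, quantile normalization, no scaling, the strongest probe set, no replicate block, 4 arrays and each array left out. Promoter windows and gene order were taken from RefSeq (GRCr8), where 9 of the 10 genes matched a promoter.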

Additional observations from a re-analysis of the deposited data

How the results depend on the processing

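With a lower floor at the 20th percentile, quantile normalization, the signals as deposited or the probe set with the highest mean signal, limma called 2 of the 8 genes in TEG3 and 2 in OEC Lp, each against OEC Ep, and 0 between TEG3 and OEC Lp. The 2 calls of TEG3 against OEC Ep became 0 with no floor, with genes above the floor on all 6 arrays (where 5 of the genes were tested), with no filter on dim probe sets, with no replicate block and with the 4 arrays alone. The 2 of OEC Lp against OEC Ep became 1 with no floor and with the 4 arrays alone, and 0 with genes over the floor throughout, no filter and no replicate block. In TEG3 against OEC Lp, Cst3 made 1 call among genes over the floor throughout. Without each array in turn, where the lone array was assumed to vary like the others, the members called ranged from 0 to 0, from 0 to 1 and from 0 to 0 in the 3 comparisons, and the calls over all genes from 0 to 0, from 0 to 38 and from 0 to 0.

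Over all genes, the 141 calls of TEG3 against OEC Ep became 11 with no floor, 86 with genes over the floor throughout, 1 with no filter, and 0 with no replicate block and with the 4 arrays alone (172 and 622 at an unadjusted p under 0.05). The 192 of OEC Lp against OEC Ep became 66 with no floor, 122 with the lower floor, 77 above the floor on all arrays, 1 with no filter, 0 with no replicate block (193 at an unadjusted p under 0.05) and 38 with the 4 arrays. The 41 of TEG3 against OEC Lp became 0 with no floor, 4 with the lower floor, and 0 with no filter, no replicate block and 4 arrays (438, 469, 109 and 376 at an unadjusted p under 0.05 with no floor, no filter, no block and 4 arrays). The cause was not tested, apart from the fewer samples or genes that some of these settings hold. The called log2 folds of Ctss and Ctsc kept their sign in the alternatives that tested them, which leave out the setting with genes over the floor throughout. Signals near the floor limit Ctss, Ctsk, Ctsc in OEC Lp and the weaker Lgmn probe set, since no order can be read there.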
